A study of Homo sapiens with 4 samples.

Results

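PC3 cells depleted of p14ARF were compared with PC3 cells, both after 3 days in 1 µM MLN4924, over all genes that averaged 1 TPM (a share of all transcripts, scaled so that each library sums to 1000000) or more in the 6 libraries concerned. This left 14604 of 43622 genes and 6 of the 12 libraries of the series. PC3 is an established line of human prostatic adenocarcinoma. The PC3-shp14ARF line carried a short hairpin RNA (shRNA) against p14ARF, brought in stably by retrovirus, and was selected with hygromycin after transduction. The groups were PC3 with MLN4924 (MLN, libraries 1, 2 and 5) and PC3-shp14ARF with MLN4924 (Both, libraries 2, 3 and 4). The DMSO groups, PC3 (Ctrl, libraries 1, 2 and 3) and PC3-shp14ARF (shARF, libraries 1, 3 and 5), entered only where the line difference with and without the drug was compared. The study names no control shRNA for PC3 and does not say how many clones the selected line holds, so the shRNA and the history of the line cannot be told apart. It does not say whether the 3 libraries of a group came from separate cultures, and p-values then measure the spread between libraries, which may be technical.

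MLN4924 blocks the enzyme that activates NEDD8, a small protein that is conjugated to cullins and switches on the cullin-RING ubiquitin ligases, and substrates of these ligases pile up when it is blocked. p14ARF is a nucleolar tumor suppressor made from the CDKN2A gene, known for binding MDM2 and for slowing ribosome production. PC3 cells lack functional p53, so p14ARF acts in them outside its best known pathway, and they secrete inflammatory cytokines with constantly active NF-kB.

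The libraries of a group were close to each other. Over log2(TPM + 0.1) the Pearson correlation across genes was 0.984 to 0.987 within MLN and within Both, and 0.950 to 0.955 between libraries of the 2 groups. Transcripts of the mitochondrial genome took 8.43% to 12.9% of the TPM in MLN, highest in library 1, and 10.2% to 13.2% in Both, highest in library 4. CXCL8, the chemokine interleukin-8, was the most abundant gene in every one of the 6 libraries. The identity markers read as PC3: KRT8 and KRT18, keratins of simple epithelium, were at 93.1 and 156 TPM in MLN, CTNNA1, which PC3 has lost, at 1.5 TPM, and KLK3, the prostate-specific antigen, below the limit of 1 TPM. The 15 identity markers summed to 735 to 850 TPM in MLN and 621 to 661 TPM in Both. The 23 markers of other cell types summed to 519 to 688 TPM in MLN and 358 to 403 TPM in Both, of which CD68, a lysosomal protein also made outside macrophages, held 545 and 328 TPM. Of these 23, 4 were called lower, PDGFRA and COL1A1 among them, COL3A1 was called higher and 14 did not reach 1 TPM. PTPRC, CD3E, PECAM1 and VWF, the defining genes of blood and endothelial cells, were each below 1 TPM. The part of these markers in the results was not tested. In bulk RNA, fewer cells with a transcript and less of it per cell cannot be told apart.

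At an adjusted p below 0.05 (limma, Benjamini-Hochberg over the 14604 genes), 6517 genes were called, 44.6% of those tested, with 2509 higher in Both (17.2%) and 4008 lower (27.4%). Most of these differences were small. By more than 1 on the log2 scale, 260 genes were higher (1.78%) and 923 lower (6.32%), and by more than 2, the cutoff of the study, 64 were higher (0.438%) and 206 lower (1.41%). Every Both library was above every MLN library for 3323 genes (22.8%) and below for 4720 (32.3%). The median log2 fold change over all genes was −0.058. With the libraries scaled by the median of gene ratios instead of the TPM total, the median was 0.0011 and the calls split into 3370 higher and 3554 lower, so that the share of lower calls was 51.3% in place of 61.5%. The genes that changed by more than 1 were low ones, with a median of 3.46 TPM for those higher and 3.55 TPM for those lower, beside 16.8 TPM over all genes. Fold changes on the log2(TPM + 0.1) scale understate the change of such genes.

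**Figure D1:**
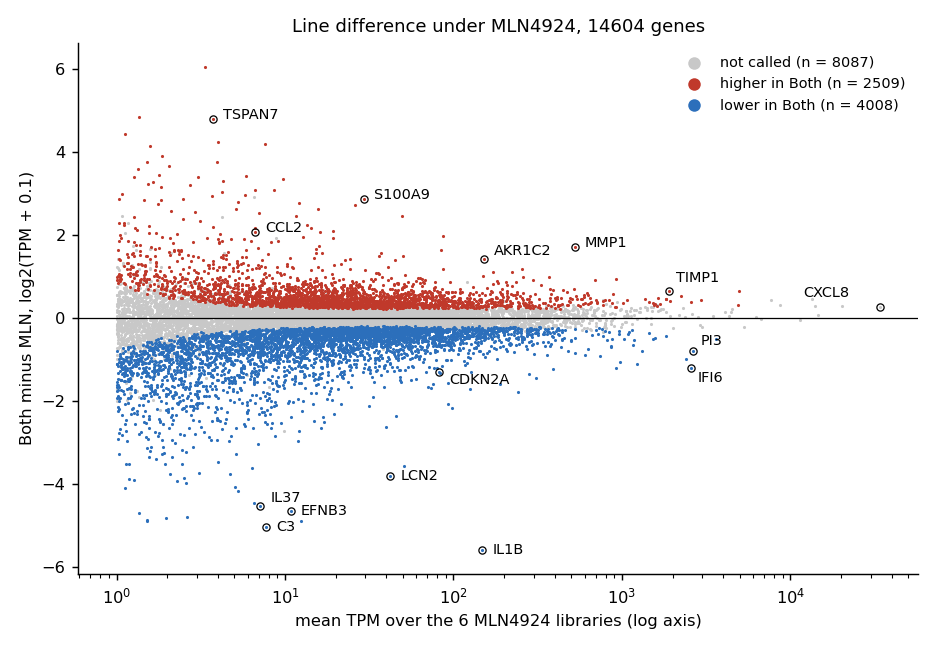
Difference Both minus MLN on log2(TPM + 0.1) against the mean TPM over the 6 libraries (log axis), 1 point per gene. Red and blue points are genes called higher (2509) and lower (4008) at an adjusted p below 0.05, grey points are not called. The larger changes lie at low TPM and more of them below 0 than above, and IL1B is the lowest point. The highest point is AC073486.1, listed at 0 in all MLN libraries.

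CDKN2A, the gene of p14ARF and of the CDK4 inhibitor p16INK4a, was at 100.4, 133 and 119 TPM in MLN libraries 1, 2 and 5 and at 47.2, 41.2 and 54.0 TPM in Both libraries 2, 3 and 4, the order used in all that follows. No Both library reached the MLN range (log2 fold change −1.31 ± 0.12, adjusted p = 2.00e-05, where ± gives the standard error of the fit, as in all fold changes that follow). The deposited value covers both products of the gene, so the share of the p14ARF transcript in it is unknown. CDKN2D, which makes p19INK4d, another inhibitor of CDK4 and CDK6, was at 78.9, 93.2 and 91.9 TPM in MLN and 30.3, 32.5 and 32.1 TPM in Both (log2 fold change −1.47 ± 0.088, adjusted p = 1.11e-06). Of the 7 CDK inhibitors kept of 8, 4 fell (57.1%, beside 27.4% of all genes) and none rose (1 without MLN library 1), beside 17.2% of all genes. The median log2 fold change was −0.39. CDKN2A, the target of the shRNA, is among these 4, so count and median rest in part on the depletion itself. CDKN1A, the gene of p21, was at 299, 340.1 and 394 TPM in MLN and 219, 205 and 183 TPM in Both, without overlap (log2 fold change −0.76 ± 0.11, adjusted p = 0.00039).

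The other genes that the study names differed by less than CDKN2A. CDKN1B, the gene of p27, was at 53.3, 49.7 and 49.9 TPM in MLN and 44.7, 45.3 and 43.5 TPM in Both, a difference that missed the threshold (log2 fold change −0.20 ± 0.075, adjusted p = 0.0561) and passed it under 3 other settings. WEE1, the kinase that holds CDK1 inactive, averaged 10.4 ± 0.346 TPM in MLN and 9.83 ± 0.552 TPM in Both (SD, n = 3), and CDT1, the licensing factor degraded by CUL4, 95.8 ± 11.7 and 82.9 ± 10.2 TPM, both with overlapping libraries and not called (adjusted p = 0.458 and 0.16). NFKBIA, the inhibitor IkBα, fell from 50.7, 60.9 and 60.1 TPM to 42.7, 42.2 and 43.8 TPM (log2 fold change −0.41 ± 0.089, adjusted p = 0.00398). SUMO2, one of the small modifiers of the SUMO pathway, was just past the threshold (log2 fold change 0.22, adjusted p = 0.0483), and its adjusted p was 0.0516 to 0.151 with any one of Both libraries 2, 3 and 4 and MLN libraries 2 and 5 left out.

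The lists of genes described were chosen by function, and each is given by how many of its members passed the filter of 1 TPM (kept), rose or fell. The shares to set beside these counts are those of all genes, 17.2% higher and 27.4% lower. The filter takes the mean over both groups, so a gene high in a single group can pass through that group alone. Such genes enter the counts of the lists and the shares of all genes. Where a list is given below with none higher or none lower, limma also found none in that direction at an unadjusted p below 0.05, except among the mitochondrially encoded genes. Among the 12 lowest log2 fold changes (genes called, without overlap of libraries and with a mean of at least 5 TPM in the higher group) were 6 genes of inflammation, IL1B, C3, IL24, IL37, TNF and LCN2, and the chemokine CX3CL1. The others were CGB8, AL109763.1, EFNB3, PALM3 and FNDC4. EFNB3, the membrane ligand ephrin-B3, lies on chromosome 17 from 7705202 to 7711372 (GRCh38, plus strand) and was at 18.3, 22.0 and 22.5 TPM in MLN and 0.604, 0.754 and 0.861 TPM in Both (log2 fold change −4.65 ± 0.15, adjusted p = 3.18e-08). IL37, an IL-1 family cytokine that dampens inflammation, was at 12, 14.5 and 14.6 TPM in MLN and 1.07, 0.543 and 0.174 TPM in Both (log2 fold change −4.54 ± 0.40, adjusted p = 1.34e-05). Both genes were near 1 TPM or below in every Both library and above 10 TPM in every MLN library. CGB8, a chorionic gonadotropin beta gene with near-identical copies beside it, was at 5.19, 5.8 and 4.27 TPM in MLN and 0.509, 0 and 0 TPM in Both, so that its fold change rests on values of 0. PALM3, of the paralemmin family, went from 8.91 to 0.568 TPM on average (log2 fold change −3.77), and FNDC4, a secreted protein with a fibronectin domain, from 11.9 to 0.880 TPM (−3.63).

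The 12 highest fold changes were of genes that MLN cells barely expressed. TSPAN7, a tetraspanin of the cell surface, was at 0.190, 0.0483 and 0.339 TPM in MLN and 6.98, 8.06 and 6.76 TPM in Both (log2 fold change 4.79 ± 0.36, adjusted p = 4.98e-06), and it was also low in Ctrl and shARF, at 0.115 and 0.101 TPM on average. AC073486.1 was listed at 0 in all MLN and Ctrl libraries, and was at 4.70, 8.43 and 6.88 TPM in Both and 11.7, 10.1 and 9.97 TPM in shARF. UGT2A1, a glucuronosyltransferase that shares exons with UGT2A2, LINC02366 and LUM, the matrix proteoglycan lumican, averaged 7.73, 10.8 and 11.8 TPM in Both and 0.330, 0.928 and 1.37 TPM in MLN. CT83, a cancer/testis antigen, was at 0.269, 0.274 and 1.1 TPM in MLN and 7.92, 7.21 and 6.93 TPM in Both. CEACAM6, an adhesion molecule of epithelia, was at 1.6, 1.87 and 1.48 TPM and 18.6, 19 and 15.5 TPM. The histone chaperone gene NAP1L3 was at 1.62, 1.71 and 1.83 TPM and 13.8, 17.3 and 15.1 TPM. The libraries of these 3 genes stood clear of each other, with log2 fold changes of 3.76, 3.35 and 3.08 and adjusted p of 3.69e-05, 9.16e-08 and 9.16e-08. ZNF711, a zinc finger protein, the kinase STK26, AGT, the precursor of angiotensin, and ANKFN1 made up the rest, at 2.95 to 3.40 on the log2 scale. Of the 11 of these 12 genes with a position in the annotation, 5 lay on chromosome X (TSPAN7, CT83, ZNF711, STK26 and NAP1L3), which holds 3.46% of the genes with a position, and none of the 11 with a position among the 12 lowest did. This was noticed after the values were seen.

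By absolute amount IFI6, an interferon-induced protein of mitochondria, fell most of the called genes, from 3705, 3732 and 3314 TPM in MLN to 1456, 1541 and 1653 TPM in Both (log2 fold change −1.21 ± 0.10, adjusted p = 9.05e-06). SRGN, the proteoglycan serglycin of secretory granules, followed with 3411, 3153 and 2988 TPM and 1541, 1596 and 1634 TPM. PI3, the elastase inhibitor elafin, had 3048, 3776 and 3299 TPM and 2022, 1864 and 1906 TPM. In none of the 3 genes did the groups overlap. TMSB10, an actin-binding thymosin, and IFITM1, an interferon-induced barrier to viral entry, completed the 5 largest falls, with log2 fold changes of −0.52 and −1.12. TMSB10 lost its call with no filter on low values (adjusted p = 0.075). Genes not called, such as CXCL8, were not ranked. Among the 5 largest rises of called genes, TIMP1, an inhibitor of matrix proteases, went from 1295, 1641 and 1548 TPM to 2493, 2260.1 and 2253 TPM (log2 fold change 0.65 ± 0.11, adjusted p = 0.000991). The other 4 were less sure. The mitochondrial ribosomal RNA MT-RNR2 (0.64) had an adjusted p of 0.0193, and 0.052 to 0.0755 with any one of Both libraries 3 and 4 and MLN libraries 2 and 5 left out. The elongation factor EEF1A1 (0.29) was at 0.0478, and 0.0689 to 0.178 with any one of Both libraries 2 and 3 and MLN libraries 1, 2 and 5 left out. RPS12, a ribosomal protein whose libraries overlapped (0.43), was at 0.0348, and 0.0714 to 0.125 with any one of Both libraries 2 and 4 and MLN libraries 2 and 5 left out. HMGA1, a chromatin protein (0.51), was at 0.0121, and 0.0532 without Both library 3.

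**Figure D2:**
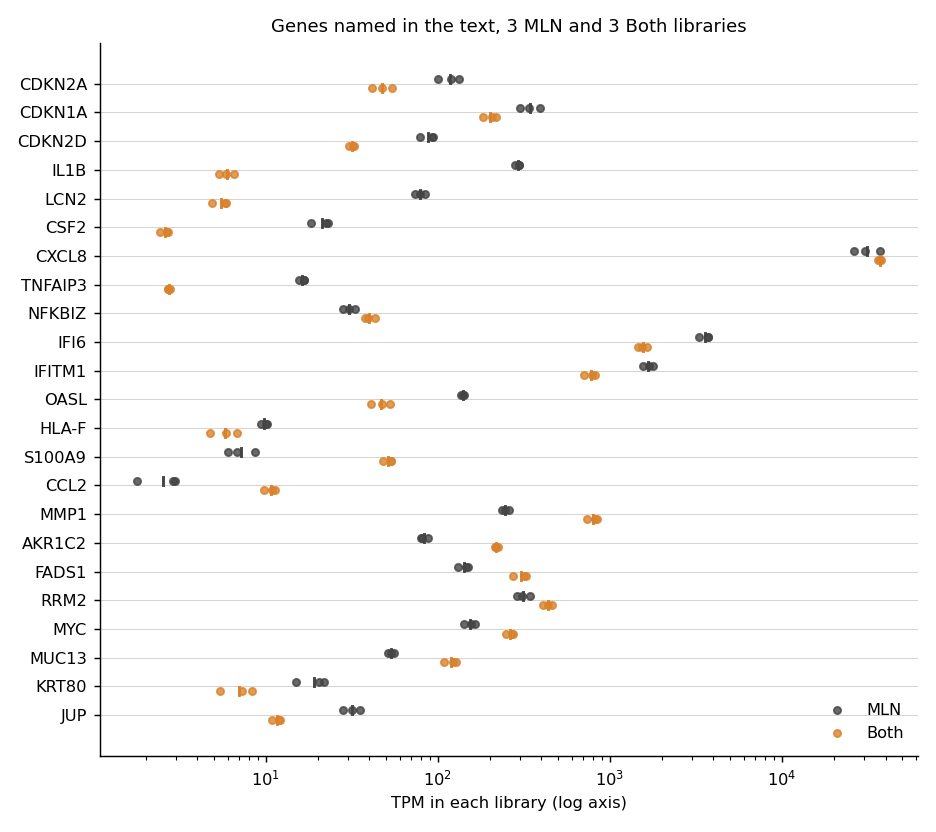
TPM on a log axis in the 3 MLN libraries (dark grey points) and the 3 Both libraries (orange points) for 23 genes named in the text, with a vertical bar at each group mean. All genes but CXCL8 have separate groups. IL1B and LCN2 show the widest gaps below MLN, and S100A9 and CCL2 the widest above.

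The inflammatory genes fell in most families. The IL-6 family, the colony-stimulating factors and the IL-10 family were a list of 14 genes, of which 12 passed the filter. Of these 11 fell and none rose, a share of 91.7% beside 27.4% of all genes, with a median log2 fold change of −1.30. IL24, a cytokine of the IL-10 family, went from 24.9, 20.5 and 26.7 TPM to 0.681, 0.844 and 0.590 TPM (log2 fold change −4.91 ± 0.15, adjusted p = 2.89e-08), and CSF2, which makes GM-CSF, from 22.5, 23.1 and 18.2 TPM to 2.66, 2.70 and 2.41 TPM (log2 fold change −2.98 ± 0.12, adjusted p = 9.16e-08). The only member not called, CLCF1, was at 68.1 TPM in MLN and 73.1 TPM in Both. Of 14 IL-1 family genes and receptors 9 were kept, and 7 fell (77.8%) and none rose, with a median of −1.05. IL1B, the precursor of interleukin-1β, was at 282, 296 and 296 TPM in MLN and 5.37, 6.57 and 5.85 TPM in Both (log2 fold change −5.60 ± 0.089, adjusted p = 9.44e-11), while the receptor chains IL1RAP and IL1R2 were not called (0.015 and 0.048 on the log2 scale). Of 19 TNF ligands and receptors 14 were kept, and 9 fell (64.3%) and none rose, with a median of −0.35. TNF itself went from 9.16, 9.42 and 10.3 TPM to 0.357, 0.816 and 0.349 TPM (log2 fold change −4.08 ± 0.26, adjusted p = 1.73e-06), and TNFRSF9, the costimulatory receptor 4-1BB, from 5.08, 5.20 and 5.31 to 1.87, 2.16 and 1.94 TPM (log2 fold change −1.35). Its widely expressed receptor TNFRSF1A was not called (0.040). IL24 and TNF, below 1 TPM in every Both library, passed the filter through MLN alone. Members that pass in this way can only count as falls. With a filter at 10 TPM, which tests fewer members, 4 genes of the IL-6, CSF and IL-10 families fell. Without the drug 10 of the 12 genes of the IL-6, CSF and IL-10 families were lower in shARF than in Ctrl and 2 higher, with a median of −2.20. In the IL-1 list 7 of 9 were lower and 1 higher (median −1.67). In the TNF list 10 of 14 were lower and 1 higher (median −0.35). Of all genes 25.7% were lower without the drug.

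The regulators of NF-kB split. Of 14 listed 13 were kept, and 8 fell (61.5%) and 2 rose (15.4%), with a median of −0.41. Without the drug 10 of the 13 were lower in shARF than in Ctrl and 2 higher, with a median of −1.14. TNFAIP3, the deubiquitinase A20 that shuts the pathway down, was at 15.7, 16.6 and 16.6 TPM in MLN and 2.79, 2.71 and 2.72 TPM in Both (log2 fold change −2.53 ± 0.094, adjusted p = 8.65e-08), and IKBKE, an IkB kinase, at 6.81, 7.77 and 8.27 TPM and 1.5, 1.64 and 1.31 TPM (log2 fold change −2.29 ± 0.15, adjusted p = 1.59e-06). In contrast NFKB1, which makes the p50 subunit, was at 10.8, 11.2 and 12.9 TPM and 15.5, 16 and 14.2 TPM (log2 fold change 0.39 ± 0.096, adjusted p = 0.00833), and NFKBIZ, the nuclear cofactor IkBζ, at 28.2, 30.5 and 32.8 TPM and 39.2, 42.9 and 37.8 TPM (log2 fold change 0.39 ± 0.089, adjusted p = 0.00515). All 3 Both libraries lay above the MLN range for these last 2 genes.

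The chemokines did not fall together. Of 12 CXC chemokines 7 were kept, and 4 fell (57.1%) and none rose, with a median of −0.28. The most abundant one, CXCL8, was at 37120.3, 30320.3 and 26399.7 TPM in MLN and 35971, 37384 and 37772 TPM in Both, with overlapping libraries (log2 fold change 0.26 ± 0.15, adjusted p = 0.198). CXCL1 and CXCL3, which attract neutrophils and resemble CXCL2 in sequence, were not called either (0.11 and 0.024). CXCL16, a ligand of CXCR6, fell from 14.5, 17.3 and 18.1 to 9.11, 8.75 and 8.26 TPM (log2 fold change −0.92 ± 0.10, adjusted p = 5.82e-05). CXCL11 fell by less (−0.48, adjusted p = 0.0434), and its adjusted p was 0.0677 to 0.134 with any one of Both libraries 2, 3 and 4 and MLN library 1 left out. Without MLN library 1 its log2 fold change was −0.27, and it was not called under either other scaling (adjusted p = 0.0956 and 0.0741) or in the fit of 12 libraries (0.0564). Without Both library 2 the count of fallen CXC chemokines was 2, and without MLN library 1 a member was called higher. Of 9 CC and CX3C chemokines 5 were kept, and 3 fell (60%) and 2 rose (40%). CX3CL1, or fractalkine, was at 5.30, 6.21 and 6.02 TPM in MLN and 0.375, 0.457 and 0.220 TPM in Both (log2 fold change −3.76 ± 0.25, adjusted p = 2.40e-06), and CCL20, which attracts Th17 and dendritic cells, at 11.0, 10.9 and 7.97 TPM and 2.34, 1.92 and 1.63 TPM (log2 fold change −2.28 ± 0.17, adjusted p = 4.15e-06). CCL2, which attracts monocytes, went the other way, from 1.78, 2.95 and 2.89 TPM to 10.9, 11.2 and 9.78 TPM (log2 fold change 2.06 ± 0.18, adjusted p = 1.1e-05). CCL5 was also higher (0.55), with an adjusted p of 0.0316, and 0.0626 to 0.0908 with any one of Both libraries 2 and 3 and MLN libraries 2 and 5 left out.

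Acute-phase, complement and defence genes moved in both directions, with 6 of the 12 kept of 20 lower (50%) and 4 higher (33.3%). Without the drug 6 were lower in shARF than in Ctrl and 6 higher. The complement protein C3 was at 13.9, 16.1 and 15.2 TPM in MLN and 0.288, 0.474 and 0.333 TPM in Both (log2 fold change −5.05 ± 0.18, adjusted p = 8.54e-08). LCN2, a siderophore-binding protein, was at 73.4, 79.2 and 83.9 TPM and 5.90, 4.85 and 5.76 TPM (log2 fold change −3.82 ± 0.098, adjusted p = 4.55e-09). S100A9, a calcium-binding alarmin, rose from 8.70, 6.77 and 6.01 TPM to 47.8, 53.4 and 53.7 TPM (log2 fold change 2.85 ± 0.13, adjusted p = 2.08e-07), and C1R, a protease that starts the classical complement cascade, from 0.390, 0.795 and 0.479 to 1.90, 1.66 and 1.67 TPM (log2 fold change 1.54 ± 0.32, adjusted p = 0.00305). Both complement genes had libraries that did not overlap, C3 lower and C1R higher in Both.

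Of the 8 kept of 12 prostaglandin and bradykinin genes, 6 fell (75%) and 1 rose, or 2 under median-of-ratios scaling, with a median of −0.84. BDKRB1, the inducible bradykinin receptor, went from 1.98, 3.22 and 3.55 TPM to 0.217, 0.386 and 0.106 TPM (log2 fold change −3.21 ± 0.40, adjusted p = 0.000132), and PTGES, the inducible prostaglandin E synthase, from 67.2, 89.7 and 71.8 TPM to 16, 14.4 and 13.6 TPM (log2 fold change −2.36 ± 0.11, adjusted p = 2.93e-07). PTGES3, a cochaperone with the same name root, rose slightly (0.35, adjusted p = 0.00936). Without the drug 5 of the 8 were lower in shARF than in Ctrl and 2 higher, with a median of −1.10.

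Interferon-stimulated genes fell as a group. All 30 genes of the list passed the filter, and 23 of them fell (76.7%, beside 27.4% of all genes) and none rose, with a median of −0.58. OASL, an antiviral relative of the oligoadenylate synthetases, was at 136, 141 and 141 TPM in MLN and 41.1, 52.4 and 47.5 TPM in Both (log2 fold change −1.57 ± 0.096, adjusted p = 1.26e-06). MX2, a GTPase that restricts viruses, was at 5.27, 3.27 and 5.21 TPM and 1.09, 1.84 and 1.52 TPM (log2 fold change −1.56 ± 0.24, adjusted p = 0.000448). IFITM1 was at 1557, 1773 and 1696 TPM and 709, 818 and 788 TPM (log2 fold change −1.12 ± 0.097, adjusted p = 1.17e-05). For 25 of the 30 genes all Both libraries lay below all MLN libraries, where 32.3% of all genes showed this. The count stayed at 22 to 24 with each library left out and at 23 and 24 under the other 2 scalings. IRF9, IFI27, IFI35, IFI44, IFI44L and IFITM2 were among those not called, with log2 fold changes between −0.25 and −0.12.

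The fall was seen in the drug condition. Without the drug, 20 of the 30 were higher in shARF than in Ctrl and 2 were lower, where 28% and 25.7% of all genes were, with a median of 0.39. The difference between the line differences (interaction, limma over the 12 libraries) was negative for 28 of the 30 and positive for none, where 22.8% and 14.7% of all genes were called, and 15 were called in opposite directions, beside 5.06% of all genes. IFITM1 is an example, with 275, 254 and 247 TPM in Ctrl, 428, 648 and 543 TPM in shARF and an interaction of −2.16 (standard error 0.17, adjusted p = 1.26e-06). IFI6 was at 749 and 642 TPM on average in Ctrl and shARF, not called between them (−0.23, adjusted p = 0.263), with an interaction of −0.98. OASL was at 41.0 and 44.4 TPM, and its interaction was −1.69.

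Genes of this kind are known for the interferon-stimulated response element (ISRE), bound by a complex that holds STAT2 and IRF9, so the promoters were read for its core (TTTC, any 2 bases, TTTC) on either strand. The windows were the 250 bases before each RefSeq start (GRCh38.p14), overlapping matches included. Of the 30 genes 22 had a promoter in the table, and 17 of these (77.3%) held the core, where 3.41% of the 10220 tested genes with a promoter and 3.71% of all 27305 genes did. The list was chosen by function, so this share describes the list and not the fall. The core was in 23 of 568 genes lower by more than 1 on the log2 scale (4.05%). It was in 6 of 131 higher by more than 1 (4.58%) and 2 of 124 lower by more than 2 (1.61%). The 4 windows below show it in capitals, on the strand of the gene, as GAAA, 2 bases, GAAA where it lies on the other strand. IFI6 and IFITM1 were among the 5 largest falls in TPM of called genes, and ISG15 and IFIT3 were picked after their values were seen for their log2 fold changes of −1.08 and −1.36.
IFI6 (chr1:27672256-27672305, minus strand, 93 bases before the start): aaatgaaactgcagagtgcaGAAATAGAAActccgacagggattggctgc
IFITM1 (chr11:313980-314029, plus strand, 40 bases before the start): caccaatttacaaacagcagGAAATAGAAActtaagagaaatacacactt
ISG15 (chr1:1013370-1013419, plus strand, 107 bases before the start): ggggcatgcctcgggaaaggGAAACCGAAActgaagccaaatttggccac
IFIT3 (chr10:89327855-89327904, plus strand, 122 bases before the start): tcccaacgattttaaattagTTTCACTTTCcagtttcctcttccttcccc
Each window holds the match nearest the start, and the distances are those of its first base. These starts are not among the letters shown. OAS1, STAT2, IRF1, IRF9 and IFI35 had no core in their windows, and 3 of these 5 fell all the same. IFI27, IFI44 and IFI44L held the core and were not called by limma (adjusted p = 0.3427, 0.1955 and 0.1553). A match to these letters says nothing of binding in these cells.

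The same reading was made for the kappaB consensus, the site of NF-kB, and for the AP-1 site TGANTCA. The kappaB letters were GGG, A or G, any base, A or T, C or T, C or T, CC. Of the genes lower by more than 1 on the log2 scale 568 had a promoter, and 67 (11.8%) held the kappaB consensus and 54 (9.51%) the AP-1 site. Of those higher by more than 1, 131 had a promoter, with 10 (7.63%) and 17 (13%). Over the genes tested the shares were 7.96% and 6.59%. No test was made of these shares. In the list of NF-kB regulators 9 of 11 promoters held the kappaB consensus. TNFAIP3 and NFKBIA, feedback inhibitors that fell, are shown with LCN2, which fell most of the 3. In all of them the capitals match the kappaB letters read on the other strand.
TNFAIP3 (chr6:137867184-137867233, plus strand, 55 bases before the start): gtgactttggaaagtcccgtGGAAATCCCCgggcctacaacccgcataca
NFKBIA (chr14:35404801-35404850, minus strand, 81 bases before the start): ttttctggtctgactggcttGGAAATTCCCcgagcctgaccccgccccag
LCN2 (chr9:128149258-128149307, plus strand, 175 bases before the start): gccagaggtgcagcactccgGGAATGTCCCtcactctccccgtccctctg
IL1B, TNF, IL24, IL37 and CXCL8 had no exact match to the kappaB letters in windows of this length, at the start lying farthest upstream. Sites that differ from these letters were not looked for. A missing match therefore does not show that NF-kB has no site there.

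Class I antigen presentation followed the interferon genes in part. Of 15 genes kept, 8 fell (53.3%) and 1 rose (6.67%), with a median of −0.25, and without Both library 2 the count of falls was 5. ERAP2, a peptidase that trims peptides for class I molecules, was at 11.4, 9.99 and 9.10 TPM in MLN and 2.68, 4.05 and 3.54 TPM in Both (log2 fold change −1.56 ± 0.15, adjusted p = 2.68e-05), and HLA-F at 9.99, 10.1 and 9.34 TPM and 4.76, 5.84 and 6.79 TPM (log2 fold change −0.76 ± 0.13, adjusted p = 0.000881). The classical HLA-C and its partner B2M were not called (0.035 and −0.046), and HLA-B was higher (0.26), with an adjusted p of 0.0239, and 0.0518 to 0.0701 with any one of Both library 4 and MLN libraries 2 and 5 left out. HLA genes share sequence, so reads may have been split between them. Without the drug 9 of the 15 were higher in shARF and 4 lower, and the interaction was negative for 10 and positive for none, or for 1 under median-of-ratios scaling.

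Genes of DNA replication were read as 2 lists. Of 25 genes of the fork and of nucleotide synthesis, 12 rose (48%, beside 17.2% of all genes) and 1 fell (2 without MLN library 1), with a median of 0.25. POLA1, the catalytic subunit of the primase-polymerase, went from 10.5, 10.5 and 11.3 TPM to 18.8, 18.2 and 17.1 TPM (log2 fold change 0.74 ± 0.084, adjusted p = 6.96e-05), and RRM2, a subunit of ribonucleotide reductase, from 289.7, 307 and 342 TPM to 439, 458 and 407 TPM (log2 fold change 0.48 ± 0.092, adjusted p = 0.00202). The clamp loader subunit RFC2 fell (−0.60, adjusted p = 0.000215), and PCNA, the clamp itself, was not called (−0.050). Of 21 licensing genes, 4 rose (19%), none fell (1 without MLN library 1) and the median was 0.15. ORC3, an origin recognition subunit, was at 36.5, 31.9 and 31.5 TPM and 55.7, 67.3 and 56.4 TPM (log2 fold change 0.84 ± 0.099, adjusted p = 8.95e-05), and GINS1, part of the replicative helicase, at 31.7, 30.6 and 29.9 TPM and 44.3, 48.3 and 42.8 TPM (log2 fold change 0.55 ± 0.080, adjusted p = 0.000355), while the helicase subunits MCM2 to MCM7 lay between −0.20 and 0.22, none of them called. The licensing count was 11 under median-of-ratios scaling, and 2 without any one of Both library 2, Both library 3 and MLN library 2. Without the drug these genes differed far more between the lines, with 25 of 25 fork genes and 20 of 21 licensing genes higher in shARF and medians of 0.92 and 1.08. The interaction was negative for 22 and 15 of them and positive for none, or for 1 licensing gene under median-of-ratios scaling.

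Genes of mitosis went both ways. Of 37, 6 rose (16.2%, beside 17.2% of all genes) and 6 fell (16.2%, beside 27.4%), with a median of −0.0033 whose sign turned under either other scaling (0.019 and 0.057). Under median-of-ratios scaling 10 rose and 3 fell, so that the balance of the list depends on the scaling. CDC20, the activator of the anaphase-promoting complex, was at 71.4, 81.6 and 88.7 TPM in MLN and 49.1, 47.9 and 44.5 TPM in Both (log2 fold change −0.77 ± 0.095, adjusted p = 0.000119), and CCNB1, or cyclin B1, at 93.0, 91.6 and 95.8 TPM and 71.2, 68.2 and 66.2 TPM (log2 fold change −0.45 ± 0.075, adjusted p = 0.000845). TOP2A, topoisomerase IIα, rose (0.38, adjusted p = 0.00702), as did the proliferation marker MKI67 (0.34), whose adjusted p was 0.0309, and 0.0867 to 0.131 with any one of Both libraries 2 and 3 and MLN library 2 left out. Leaving out single libraries moved the count of rises to 1 without Both library 3 and 2 without Both library 2 or MLN library 2, and the count of falls to 2 without MLN library 2 or 5 and 3 without Both library 4. Without the drug 29 of the 37 were higher in shARF, with a median of 0.40. The interaction was negative for 25, or for 17 under median-of-ratios scaling.

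In the list of G1 cyclins, E2F and RB, 5 of the 21 kept of 22 rose (23.8%, beside 17.2% of all genes) and 2 fell (9.52%, beside 27.4%). E2F5, a repressive E2F, went from 4.56, 5.05 and 4.96 TPM to 9.50, 12.2 and 8.94 TPM (log2 fold change 1.05 ± 0.13, adjusted p = 0.000106), and MYC from 141, 155 and 164 TPM to 269, 272 and 249 TPM (log2 fold change 0.78 ± 0.086, adjusted p = 5.63e-05). CCND3, or cyclin D3, fell from 51.9, 58.2 and 70.8 TPM to 44.1, 40.5 and 41.7 TPM (log2 fold change −0.51 ± 0.11, adjusted p = 0.004). CCNE1, or cyclin E1, fell by less (−0.26), with an adjusted p of 0.031, and 0.0744 to 0.126 with any one of Both libraries 2 and 3 and MLN libraries 2 and 5 left out. The activator E2F1 was equal on average, at 149 and 149 TPM. The count of rises was 8 under median-of-ratios scaling, and 3 without Both library 2 or 3 or MLN library 2. Among the 21 kept of 22 targets of p53, 6 fell and 3 rose, near the shares of all genes. SUSD6 and GADD45A fell (−0.95 and −0.63), AEN and RRM2B, a nuclease and a ribonucleotide reductase subunit, rose (0.38 and 0.66), and MDM2 was not called (0.052).

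The NEDD8 pathway itself differed little. Of 32 genes of NEDD8, its enzymes, the cullins and the signalosome, 4 rose (12.5%, beside 17.2% of all genes) and 4 fell (12.5%, beside 27.4%), with a median of 0.082. CUL3, a cullin scaffold, went from 19.5, 20.4 and 21.3 TPM to 30.8, 33.5 and 30.5 TPM (log2 fold change 0.63 ± 0.081, adjusted p = 0.000161). UBE2F, a NEDD8-conjugating enzyme, and CUL7 fell (−0.47 and −0.46). NEDD8 and the subunits of its activating enzyme, NAE1 and UBA3, were not called (0.071, 0.13 and 0.15). SENP8, the NEDD8 protease, was higher (0.55), with an adjusted p of 0.0372, and 0.0616 to 0.132 with any one of Both libraries 2, 3 and 4 and MLN libraries 2 and 5 left out. The count of rises was 9 under median-of-ratios scaling, and 2 without Both library 2 or 3 or MLN library 2, where the count of falls was also 2 without MLN library 2. Of 19 SUMO pathway genes 5 rose (26.3%) and 3 fell (15.8%). SENP1, a SUMO protease, rose from 13.5, 12.6 and 14.6 TPM to 21.2, 22.1 and 20.3 TPM (log2 fold change 0.64 ± 0.088, adjusted p = 0.000234), the ligase PIAS1 rose by 0.40, and the protease SENP3 was lower (−0.37). Without Both library 3 or MLN library 2 the count of rises was 3.

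For the nucleolus, where p14ARF resides, 5 of 28 ribosome biogenesis genes rose (17.9%, beside 17.2% of all genes) and 4 fell (14.3%, beside 27.4%), with a median of −0.023 (0.037 under median-of-ratios scaling). NOP14, of the small subunit processome, went from 49.0, 46.9 and 54.5 TPM to 70.4, 72.5 and 59.4 TPM (log2 fold change 0.42 ± 0.098, adjusted p = 0.00563), and POLR1A, the largest subunit of RNA polymerase I, from 8.98, 9.80 and 10.7 TPM to 12.8, 12.5 and 12.6 TPM (log2 fold change 0.36 ± 0.092, adjusted p = 0.00939). NOP58, a box C/D snoRNP protein, and WDR43 fell (−0.43 and −0.36), and NPM1 and NCL, the most abundant nucleolar proteins, were not called (0.052 and −0.020). Without Both library 2 the counts were 3 and 2, and without MLN library 2 there were 3 rises. Without the drug 24 of the 28 were higher in shARF and none lower, with a median of 0.37, and the interaction was negative for 17. Of 79 ribosomal protein genes 29 rose (36.7%) and 1 fell, with a median of 0.20. RPS15A went from 150.5, 138 and 110.3 TPM to 222, 211 and 279 TPM (log2 fold change 0.84 ± 0.13, adjusted p = 0.000638) and RPL27 rose by 0.58, while RPL24 fell (−0.33). The count of rises was 17 without MLN library 2 and 19 without MLN library 5, and the falls were 5 without Both library 4 and 2 without MLN library 1 or 5. Reads of these genes may be shared with their many pseudogenes. None of the 13 protein-coding genes of the mitochondrial genome was called by limma (1 at an unadjusted p below 0.05), nor under median-of-ratios scaling, and 7 rose without MLN library 1, the library with the highest mitochondrial share in MLN.

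Lipid synthesis was the list with the largest share of rises. Of the 25 kept of 26 genes of cholesterol and fatty acid synthesis, 16 rose (64%, beside 17.2% of all genes) and 1 fell, with a median of 0.34. FADS1 and FADS2, the desaturases that make polyunsaturated fatty acids and lie side by side on chromosome 11, went from 132, 145 and 149 TPM to 315, 325 and 275 TPM (log2 fold change 1.1 ± 0.093, adjusted p = 9.49e-06) and from 79.3, 115 and 105 TPM to 208, 205 and 185 TPM (log2 fold change 1.01 ± 0.13, adjusted p = 0.000131). The falling member was SREBF1, a transcription factor of the pathway (−0.28, adjusted p = 0.025), whose adjusted p was 0.0624 to 0.0877 with any one of Both libraries 2 and 3 and MLN libraries 2 and 5 left out. Without the drug 21 of the 25 were also higher in shARF and none was lower, with a median of 0.60, and the interaction was negative for 9 and positive for 2. Under median-of-ratios scaling the interaction was negative for 7 and positive for 6, so that its balance depends on the scaling.

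Targets of NRF2, a substrate of a CUL3 ligase, rose more often than they fell, 9 and 4 of 24 (37.5% and 16.7%). AKR1C2, an aldo-keto reductase that shares most of its sequence with AKR1C1, was at 80.4, 88.1 and 80.2 TPM in MLN and 215, 224 and 218 TPM in Both (log2 fold change 1.40 ± 0.078, adjusted p = 7.44e-07), and ME1, the malic enzyme, at 46.0, 45.5 and 43.4 TPM and 81.7, 92.1 and 82.9 TPM (log2 fold change 0.92 ± 0.081, adjusted p = 1.18e-05). CBR1, a carbonyl reductase, was among those that fell (log2 fold change −0.41 ± 0.089, adjusted p = 0.00414). The classical target NQO1 was not called (−0.18). Of the 29 kept of 30 genes of glycolysis and hypoxia, 8 fell (27.6%), about the share of all genes, and 2 rose (6.9%), or 4 under either other scaling. ENO2, an enolase, was at 65.4, 85.1 and 74.7 TPM and 31.4, 32.1 and 34.2 TPM (log2 fold change −1.20 ± 0.10, adjusted p = 9.73e-06), ANKRD37, a target of HIF, also fell (−1.18), and P4HA1, a collagen prolyl hydroxylase, and NDRG1 rose (0.57 and 0.42). The count of falls was 14 without MLN library 1 and 5 without Both library 3 or MLN library 2. In the integrated stress and unfolded protein responses 8 of 24 fell (33.3%, beside 27.4% of all genes) and 3 rose (12.5%, beside 17.2%). ASNS, asparagine synthetase, rose from 268, 302 and 287 TPM to 467, 488 and 419 TPM (log2 fold change 0.68 ± 0.091, adjusted p = 0.000203), as did TRIB3 (0.38, adjusted p = 0.0371), whose adjusted p was 0.0807 to 0.125 with any one of Both libraries 2 and 3 and MLN libraries 1 and 2 left out. The lipoprotein receptor VLDLR and the stress factor ATF3 fell (−0.76 and −0.56). The count of rises was 1 without any one of Both library 2, Both library 3, MLN library 1 and MLN library 2.

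Genes of the epithelial state fell more often than they rose. Of the 23 kept of 28 junction and keratin genes 12 fell (52.2%) and 1 rose, or 3 under median-of-ratios scaling, with a median of −0.35. KRT80, a keratin, was at 15, 20.3 and 21.8 TPM in MLN and 8.26, 7.26 and 5.44 TPM in Both (log2 fold change −1.44 ± 0.17, adjusted p = 8.44e-05), and JUP, the junction protein plakoglobin, at 28.1, 35.3 and 31.8 TPM and 12, 12.1 and 10.9 TPM (log2 fold change −1.43 ± 0.099, adjusted p = 2.66e-06). CLDN1, a tight junction claudin, was the member that rose (0.31, adjusted p = 0.0115, and 0.0598 without MLN library 2). The marker EPCAM fell from 31.0, 24.9 and 29.1 to 19.7, 21.5 and 18.3 TPM (log2 fold change −0.51 ± 0.10, adjusted p = 0.00245). Mesenchymal genes showed no rise as a list, with 5 of the 10 kept of 13 lower (50%) and 2 higher (20%). SNAI1, a repressor of epithelial genes, went from 42.2, 57.3 and 72.2 TPM to 29.8, 26.2 and 22.6 TPM (log2 fold change −1.1 ± 0.17, adjusted p = 0.000534), S100A4 and VIM, or vimentin, fell (−0.55 and −0.48), and ZEB1 rose from 10.4, 10.6 and 10.1 TPM to 17.1, 20.3 and 16.3 TPM (log2 fold change 0.77 ± 0.098, adjusted p = 0.000143). TAGLN, a smooth muscle actin-binding protein, was higher (0.42), with an adjusted p of 0.0242, and 0.0539 to 0.0965 with any one of Both libraries 2 and 4 and MLN libraries 1 and 5 left out. Of the 8 kept of 16 genes of mucins and secretory epithelium 4 fell (50%) and 3 rose (37.5%). The transcription factors FOXA2 and SPDEF fell (−2.09 and −1.42), the membrane mucin MUC13 was at 53.1, 55.3 and 51.0 TPM and 123, 128 and 108 TPM (log2 fold change 1.17 ± 0.087, adjusted p = 4.52e-06), and TFF1, a trefoil peptide, rose by 0.81.

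The matrix showed large changes in both directions. Of the 42 kept of 44 genes of collagens, laminins, integrins and other matrix, 17 fell (40.5%, beside 27.4% of all genes) and 9 rose (21.4%, beside 17.2%). COL1A1, a chain of type I collagen, went from 19.7, 17.9 and 17 TPM to 6.21, 5.58 and 6.44 TPM (log2 fold change −1.57 ± 0.098, adjusted p = 1.38e-06), and COL17A1, a collagen of hemidesmosomes, fell as well (log2 fold change −1.5). LUM, or lumican, rose from 1.96, 0.950 and 1.20 TPM to 11.0, 13.5 and 10.9 TPM (log2 fold change 3.07 ± 0.22, adjusted p = 3.34e-06) and PTN, the growth factor pleiotrophin, from 0.345, 0.614 and 0.704 to 3.85, 3.90 and 3.24 TPM (log2 fold change 2.56 ± 0.27, adjusted p = 4.08e-05). Of the 19 kept of 23 genes of matrix proteolysis 7 fell (36.8%) and 5 rose (26.3%). MMP1, the interstitial collagenase, was at 246, 258 and 236 TPM in MLN and 825, 841 and 734 TPM in Both (log2 fold change 1.70 ± 0.089, adjusted p = 4.89e-07), and MMP10, a stromelysin, rose by 0.98. MMP15, a membrane-type protease, went from 2.64, 4.22 and 3.48 TPM to 0.339, 0.241 and 0.198 TPM (log2 fold change −3.30 ± 0.31, adjusted p = 1.92e-05), and SERPINB2, an inhibitor of plasminogen activators, from 404, 380.0 and 345 TPM to 111, 109 and 104 TPM (log2 fold change −1.80 ± 0.086, adjusted p = 2.89e-07).

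Of the 22 kept of 25 genes of activin, TGF-β and BMP signalling 13 fell (59.1%) and 3 rose, with a median of −0.44. TGFBI, a matrix protein induced by TGF-β, went from 3.84, 4.66 and 3.73 TPM to 0.882, 0.778 and 0.748 TPM (log2 fold change −2.21 ± 0.19, adjusted p = 1.22e-05), and ID3, a target of BMP, from 29.2, 29.4 and 25.6 TPM to 9.08, 4.65 and 8.37 TPM (log2 fold change −1.97 ± 0.20, adjusted p = 3.65e-05). INHBB, an activin subunit, and NOG, the BMP antagonist noggin, rose (1.32 and 0.96). Of the 11 kept of 12 EGF ligands and ERBB genes, 3 rose (27.3%), with TGFA and NRG1 at 1.06 and 0.79, and 3 fell (27.3%), with ERBB3 and the EGFR inhibitor ERRFI1 at −1.03 and −0.48. AP-1 and feedback genes of MAPK signalling fell more often than they rose, 12 and 2 of 24 (50% and 8.33%). BATF3, a basic leucine zipper factor, was at 12.8, 15 and 15.4 TPM in MLN and 2.65, 2.18 and 2.37 TPM in Both (log2 fold change −2.54 ± 0.12, adjusted p = 2.79e-07), FOS at 3.55, 4.04 and 5.91 TPM and 1.34, 1.27 and 1.76 TPM (log2 fold change −1.55 ± 0.22, adjusted p = 0.000268), and EGR1 and ETV5 were higher (0.88 and 0.46), while JUN was not called (0.019).

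Of the 23 kept of 24 genes of the BCL2 family and inhibitors of apoptosis 9 fell (39.1%, beside 27.4% of all genes) and 2 rose (8.7%, beside 17.2%). BMF, a BH3-only protein that promotes apoptosis, was at 7.75, 10.3 and 9.97 TPM in MLN and 0.825, 0.920 and 0.831 TPM in Both (log2 fold change −3.29 ± 0.16, adjusted p = 3.03e-07), and BIK, another one, at 9.29, 11.5 and 9.81 TPM and 2.20, 1.12 and 2.30 TPM (log2 fold change −2.44 ± 0.23, adjusted p = 2.03e-05). The survival genes BCL2 and BCL2L1 were not called (0.035 and 0.18). The rises were of BCL2L2 and XIAP (0.22 and 0.29, adjusted p = 0.0316 and 0.0181). The adjusted p of BCL2L2 was 0.0513 to 0.145 with any one of Both libraries 2, 3 and 4 and MLN libraries 2 and 5 left out, that of XIAP was 0.0537 to 0.0677 with any one of Both libraries 2 and 3 and MLN libraries 2 and 5 left out, and neither was called without any one of Both library 2 or 3 and MLN library 2 or 5. Of the 5 kept of 10 metallothionein and zinc genes 3 fell (60%) and 2 rose (40%). MT1F went from 4.92, 4.38 and 3.83 TPM to 0.317, 0.0804 and 0.232 TPM (log2 fold change −3.93 ± 0.35, adjusted p = 1.35e-05) and MT1X fell as well (log2 fold change −0.84), while the zinc importer SLC39A10 was higher (0.68) and the exporter SLC30A1 also (0.29), with an adjusted p of 0.0492, and 0.103 to 0.145 with any one of Both libraries 2 and 3 and MLN libraries 1 and 2 left out. Of 41 heat shock and proteasome genes 7 fell (17.1%) and 3 rose (7.32%), both below the shares of all genes, with HSPB1 and PSMD4 lowest (−0.53 and −0.38) and PSMB1 and PSMB3 highest (0.45 and 0.38). The count of falls was 11 without MLN library 1 and 3 without MLN library 2, and the rises were 7 under median-of-ratios scaling. Of the 15 kept of 21 histone genes 7 fell (46.7%) and 2 rose (13.3%). The linker histones HIST1H1C and H1FX fell (−0.83 and −0.61) and HIST2H2BE rose (0.81). HIST2H2AA4, which has an identical copy, was higher (0.30), with an adjusted p of 0.0412, and 0.0641 to 0.122 with any one of Both libraries 2, 3 and 4 and MLN libraries 1 and 5 left out.

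**Figure D3:**
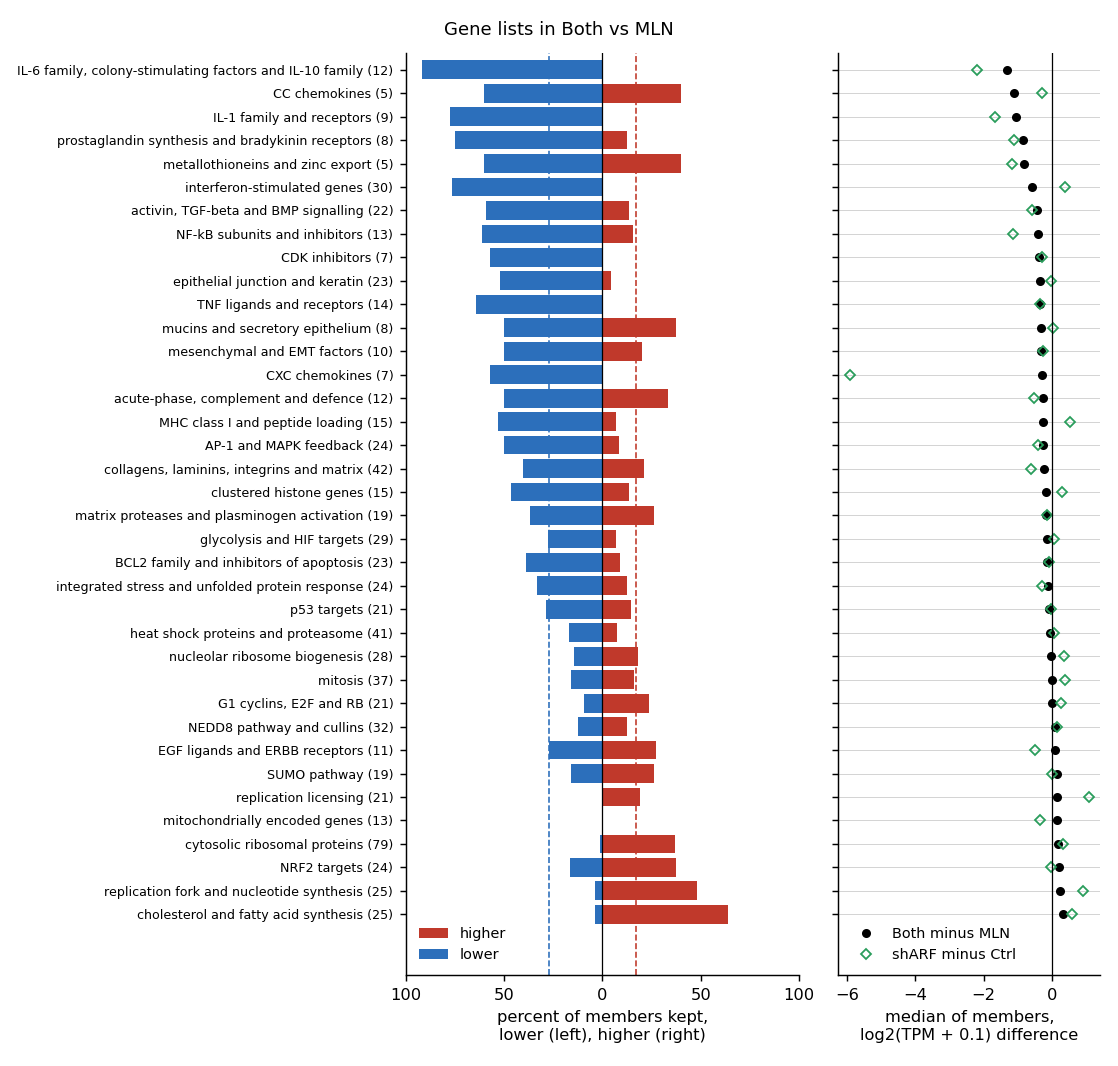
Left, the percent of the members kept of each list (number in parentheses) that were called lower (blue, to the left) and higher (red, to the right) in Both vs MLN, with dashed lines at the shares of all genes, 27.4% and 17.2%. Right, the median log2(TPM + 0.1) difference of the members in Both minus MLN (filled circles) and in shARF minus Ctrl (open diamonds). The medians of the interferon list lie on opposite sides of 0.

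The line difference with and without the drug was related across genes but not equal. In shARF vs Ctrl 4089 of the same genes were higher (28%) and 3753 lower (25.7%). The 2 comparisons share no library. Their log2 fold changes correlated at 0.513 (Pearson) and 0.417 (Spearman) over the 14604 genes, given as a description since genes are not independent replicates, and had an SD of 0.634 with the drug and 0.769 without it. Of the 2509 genes higher in Both than in MLN, 1328 (52.9%) were also higher in shARF than in Ctrl and 253 (10.1%) were lower. Of the 4008 lower ones, 1939 (48.4%) were also lower and 486 (12.1%) were higher. Among the 923 genes lower by more than 1, 65.1% were lower without the drug too. The interaction was positive for 2153 genes (14.7%) and negative for 3324 (22.8%), and with median-of-ratios scaling for 3134 and 2758, so that the larger side depends on the scaling.

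Among inflammatory genes the line difference often depended on the drug. CXCL1, CXCL3 and CXCL8 were lower in shARF than in Ctrl by −7.35, −7.03 and −5.91 on the log2 scale, with CXCL8 at 998 TPM in Ctrl and 16.6 TPM in shARF, and were not called under the drug, with interactions of 7.47, 7.06 and 6.16. LCN2 was at 2772 TPM in Ctrl and 6.95 TPM in shARF on average (−8.63), a larger difference than under the drug (interaction 4.81, adjusted p = 6.93e-11). IL24 differed more under the drug, with 1.39 TPM in Ctrl, 0.132 TPM in shARF and an interaction of −2.16 (adjusted p = 0.000405), and EFNB3 too (−2.15, adjusted p = 6.36e-06). Both lines had little IL24 without the drug, and the pseudocount of 0.1 limits fold changes at such values. TNF and CX3CL1 had like differences in both conditions (−3.82 and −4.27 without the drug), with interactions of −0.26 and 0.51 that were not called (adjusted p = 0.69 and 0.33), where standard errors of 0.47 and 0.39 leave room for a difference. CDKN2A, with −1.63 without the drug, had an interaction of 0.32 (adjusted p = 0.0985).

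In 739 genes (5.06%) the lines were called in opposite directions with and without the drug, 253 higher and 486 lower in Both vs MLN. The interaction was called for all of these genes, which largely follows from the opposite calls and is no separate support. The 5 with the smallest adjusted p of the interaction were NFKBIZ, CRABP2, FUT8, IL13RA2 and ENTPD2. NFKBIZ was at 187, 173 and 151 TPM in Ctrl and 11.2, 9.43 and 10.9 TPM in shARF. Under the drug the order was the reverse, as given above, and the interaction was 4.39 (standard error 0.13, adjusted p = 1.28e-10). IL13RA2, a decoy receptor of interleukin-13, was at 86.7, 102 and 104 TPM in Ctrl, 27.2, 27.8 and 22.3 TPM in shARF, 269, 234 and 242 TPM in MLN and 485, 522 and 451 TPM in Both. CRABP2, a carrier of retinoic acid, was at 194, 177 and 184 TPM in Ctrl, 418, 380.4 and 380.3 TPM in shARF, 511, 593 and 552 TPM in MLN and 235, 229 and 231 TPM in Both. So the shARF libraries were the lowest for IL13RA2 and the MLN libraries the highest for CRABP2, with no overlap of any groups in either gene. ENTPD2, an ecto-ATPase, averaged 3.70 TPM in Ctrl, 39.0 in shARF, 4.47 in MLN and 1.58 in Both. FUT8, the α1,6-fucosyltransferase, averaged 184, 57.7, 23.6 and 28.9 TPM, in the same order. It was higher in Both than in MLN by 0.29 on the log2 scale (adjusted p = 0.0209), with an adjusted p of 0.0507 to 0.0649 with any one of Both libraries 2 and 3 and MLN libraries 2 and 5 left out.

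**Figure D4:**
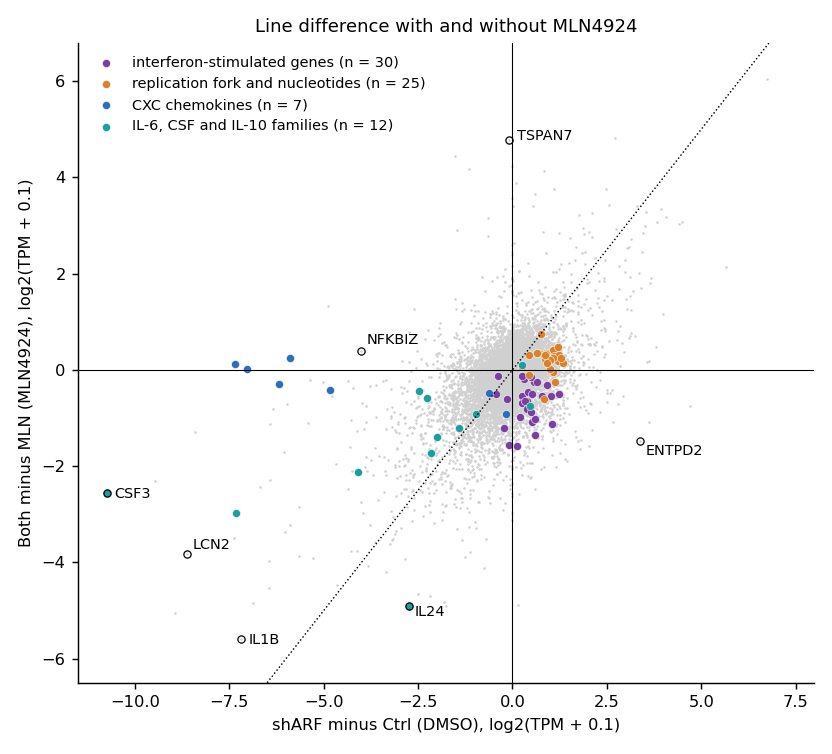
Difference Both minus MLN against shARF minus Ctrl on log2(TPM + 0.1), 1 point per gene (grey) with 4 gene lists in colour and the dotted line of equal differences. Interferon-stimulated genes lie below 0 on the vertical axis and mostly right of 0 on the horizontal one, fork and nucleotide genes to the right and near 0 on the vertical axis, and 5 of the 7 CXC chemokines at the far left near 0 on the vertical axis, while the IL-6, CSF and IL-10 families mostly lie low and to the left.

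Positions in the genome were looked at after the values were seen. Of the genes tested 13011 had a position in the GENCODE annotation of GRCh38, a release other than the authors', and 240 windows of 10 Mb held at least 20 of them. Window medians of Both vs MLN ran from −0.45 to 0.37. On chromosome 7 from 20000001 to 30000000, 30 of 52 genes fell (57.7%) and 3 rose, with a median of −0.45. The first 10 Mb of chromosome 17, where EFNB3 lies, held 149 genes, of which 102 fell (68.5%) and 2 rose (1.34%), with a median of −0.42. From 30000001 to 40000000 on the same chromosome, 44 of 74 genes rose (59.5%) and 3 fell, with a median of 0.34. Over all genes with a position 28.6% fell and 17.6% rose. Without the drug the medians of these 3 windows were −0.45, −0.23 and 0.51. Across the 240 windows the medians of the 2 comparisons, which share no library but share genes, correlated at 0.611 (Pearson) and 0.556 (Spearman). On chromosome X, 125 of 450 genes rose (27.8%) and 92 fell (20.4%), and 24 of the 189 genes with a position that rose by more than 1 lay there, beside 14 of the 806 that fell by more than 1.

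**Figure D5:**
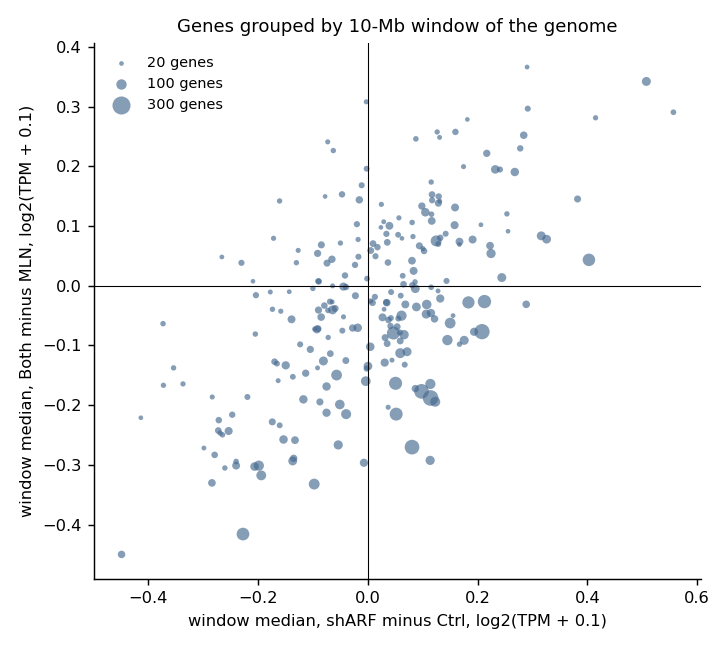
Median log2(TPM + 0.1) difference of the genes in each of 240 windows of 10 Mb, Both minus MLN against shARF minus Ctrl, with point area by the number of genes. Windows low with the drug tend to be low without it.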

How the data were processed

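RNA sequencing of 4 groups of 3 libraries was deposited as 1 table of TPM values per gene. The authors trimmed adapters, mapped reads to the human genome (hg38) and quantified genes on an Ensembl annotation in CLC Genomics Workbench, and the deposited TPM carry no depth, so the depth of each library is unknown and no counting error can be given. Whether counting used strand is not given in the sources used here. Each group is 1 GEO sample with 3 table columns, which were matched to it by their names, and 0 columns were left without a group.

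Both was compared with MLN by limma 3.58.1 (R 4.3.3, eBayes with trend) on log2(TPM + 0.1) of the 6 libraries, for genes averaging 1 TPM or more, and called at a Benjamini-Hochberg adjusted p below 0.05 over all 14604 genes. The study's own test was DESeq2 on read counts, which were not used here. The interaction was fitted over 12 libraries, and shARF vs Ctrl over its 6. The scripts were tested on simulated data. Gene lists (39, with 888 genes) and the gene sets compared were chosen with earlier results of these data known. Genes were named by rule: CDKN2A and genes that the study names, the 12 highest and 12 lowest fold changes among called genes without overlap and averaging 5 TPM or more in the higher group, the 5 largest rises and falls in TPM among called genes, the 5 opposite genes with the smallest interaction p, and the 2 highest and 2 lowest called members of each list. Members that were not called were also named, and genes outside the rule are said to be so. Genes with near-identical copies (CGB8, UGT2A1, AKR1C, IFITM, CXCL1 to CXCL3, MT1, HLA, histone and ribosomal protein genes) are uncertain, since shared reads may have been split. Promoters were of RefSeq GRCh38.p14, positions of GENCODE v44. Alternatives were other pseudocounts, filters and scaling, no trend, 1 fit of 12 libraries and each library left out. Scaling without mitochondrially encoded genes, and the alternatives for shARF vs Ctrl, were added after seeing the data. Values of some genes that the rule for named genes picks are not reported here.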

Additional observations from a re-analysis of the deposited data

Results flagged for a closer look

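The line difference depended on the drug for 5477 genes by the interaction test (limma, adjusted p below 0.05). The 5 genes named among those called in opposite directions were picked out for this difference. NFKBIZ had an interaction of 4.39 on the log2 scale, since shARF was below Ctrl and Both above MLN. The same order held for IL13RA2, at 2.89, and for FUT8, at 1.96. CRABP2, at −2.33, and ENTPD2, at −4.85, were higher in shARF than in Ctrl and lower in Both than in MLN. The groups of 3 libraries were too small for a check of single libraries that lie far from their group.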

How the results depend on the processing

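TPM carry no depth, so how many reads stand behind a value, low ones above all, is unknown. No fold change of a named gene changed sign under any alternative. Over genes and alternatives, 2313 single-gene values kept their side of the threshold, 115 lost the call and 3 gained it. Alternatives other than leaving out a library ended the call of 15 named genes (CCNE1, CXCL11, EEF1A1, HIST2H2AA4, HMGA1, MKI67, MT-RNR2, RPS12, SENP8, SLC30A1, SREBF1, SUMO2, TAGLN, TMSB10 and TRIB3), 13 of them with no filter on low values. Not all were near the threshold, since TMSB10 had an adjusted p of 0.00154 in the main limma fit. Of the counts of list members 1033 stayed within 1.5 times and 137 did not, 76 of these with a library left out, 31 with another filter, 14 with another scaling and 16 with another fit or pseudocount. The filter at 10 TPM, which tests fewer members, took the falls from 11 to 4 in the IL-6, CSF and IL-10 families, from 9 to 4 among TNF ligands and receptors, from 8 to 4 among NF-kB regulators, from 7 to 4 in the IL-1 family and from 17 to 10 among matrix genes, whose rises went from 9 to 2. With no filter the rises of ribosomal proteins went from 29 to 17. In the fit of 12 libraries 10 genes of mitosis fell. With each library left out the number of genes called in Both vs MLN was 4986 to 6349 (1806 to 2430 higher, 3087 to 4058 lower), and that of the interaction 4692 to 5701. The counts past a fold depend on how low genes are treated. With a pseudocount of 1, 167 genes were higher and 594 lower by more than 1, and 25 and 54 by more than 2. With a filter at 0.1 TPM these 4 counts were 446, 1406, 133 and 389, without a filter 463, 1415, 125 and 367, and with a filter at 10 TPM 50, 224, 10 and 25. That last filter, with fewer genes tested, also left 2606 lower in Both vs MLN and 2365 lower in shARF vs Ctrl. No paired analysis was possible because the labels carry no replicate numbers and the library numbers of MLN and Both share only number 2.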
